A study of Canis lupus familiaris with 4 samples.

Results

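Of 43603 non-control probes on the canine array used here, 4 carry the dog RefSeq mRNA accession of a keratinocyte differentiation gene examined here: 2 of DSG1 (NM_001002939) and 1 each of KRT1 (NM_001003392) and KLK5 (NM_001197167). These 3 genes are among 1045 that could be named by accession. The samples bear the names of canine mammary tumours, either grade 3, described as the most malignant, or grade 1, described as less malignant. They were hybridised in pairs, one of each grade, to 4 two-colour arrays. On 2 of these (replicates 1 and 2) Cy5 labelled grade 3, and on the other 2 it labelled grade 1. The labels give neither the number of dogs nor which arrays share an extract, so a p-value reflects only array-to-array spread, possibly technical. The protocols describe canine cancer cells grown in RPMI-1640 with serum, co-cultured with sorted monocytes for at least 72 h and sorted afterwards, while the sample names speak of tumours, and which of these the RNA came from is not settled.

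Stratified epithelium renews itself from a basal layer, and its cells change their gene programme as they move outward. Suprabasal keratinocytes assemble filaments of keratin 1 and its partner keratin 10 in place of the basal keratins, anchor them at desmosomes rich in desmoglein 1, and end as cornified cells. Kallikrein 5 is a serine protease that these cells secrete, which cleaves desmosomal proteins so that cornified cells are shed, and its inhibitor LEKTI is encoded by SPINK5. Mammary ducts are lined instead by luminal and myoepithelial cells, and squamous differentiation, seen in part of canine mammary tumours, brings the suprabasal programme into them.

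All 4 probes of the 3 genes were higher in grade 3 on every array. By its brighter probe DSG1, the desmosomal cadherin that holds suprabasal cells together, was 1.85-fold higher (log2 ratio 0.89 ± 0.07 SE from 4 arrays, limma adjusted p = 2.62e-06). KRT1, the type II keratin of the suprabasal layers, was 1.80-fold higher (0.85 ± 0.05, limma adjusted p = 4.09e-07). KLK5 was 1.65-fold higher (0.72 ± 0.05, limma adjusted p = 1.33e-06). All 4 probes were called at an adjusted p under 0.05, where 31.1% of the 35412 tested probes were called higher, 30.5% lower and 61.7% in either direction, so a call alone sets these genes little apart. In such bulk RNA, more cells of a type and more RNA per cell cannot be told apart.

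By size, the 4 differences lay in the upper part of those of all probes. The brighter DSG1 probe lay above 98.0% of tested probes by log2 fold change, KRT1 above 97.8%, KLK5 above 96.6% and the dimmer DSG1 probe above 93.9%. Only 1.43% of tested probes had a log2 fold change of 1 or more, and no probe of the 3 genes reached it.

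Levels are single-channel log2 intensities after normalization within arrays (loess) and of mean intensity between them (Aquantile), and are compared only within a probe. For KRT1 the level in grade 3 was 14.63 and 14.47 on the arrays with grade 3 in Cy5 (replicates 1 and 2, in this order throughout) and 14.81 and 14.82 on those with grade 3 in Cy3. In grade 1 the same arrays had 13.77, 13.72, 13.88 and 13.98. The lowest value of grade 3 was thus above the highest of grade 1, with means of 14.7 ± 0.17 and 13.8 ± 0.12 (SD, n = 4). The array ratios of grade 3 over grade 1 for KRT1 were 0.86, 0.75, 0.93 and 0.84 on the log2 scale, the narrowest range among the 4 probes. KRT1 was a bright probe, and its median spot signal of 8759 to 37421.5 units stood on local backgrounds of 31 to 52.

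Before any correction the fold depended on the dye. For KRT1 the median signal of grade 3 over that of grade 1 was 4.27 and 3.21 with grade 3 in Cy5, but 1.96 and 1.87 with grade 3 in Cy3. After dye normalization by Feature Extraction, the scanner software, the 4 ratios were 1.86, 1.71, 1.86 and 1.77. The direction was the same in both orientations before and after that step.

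**Figure D1:**
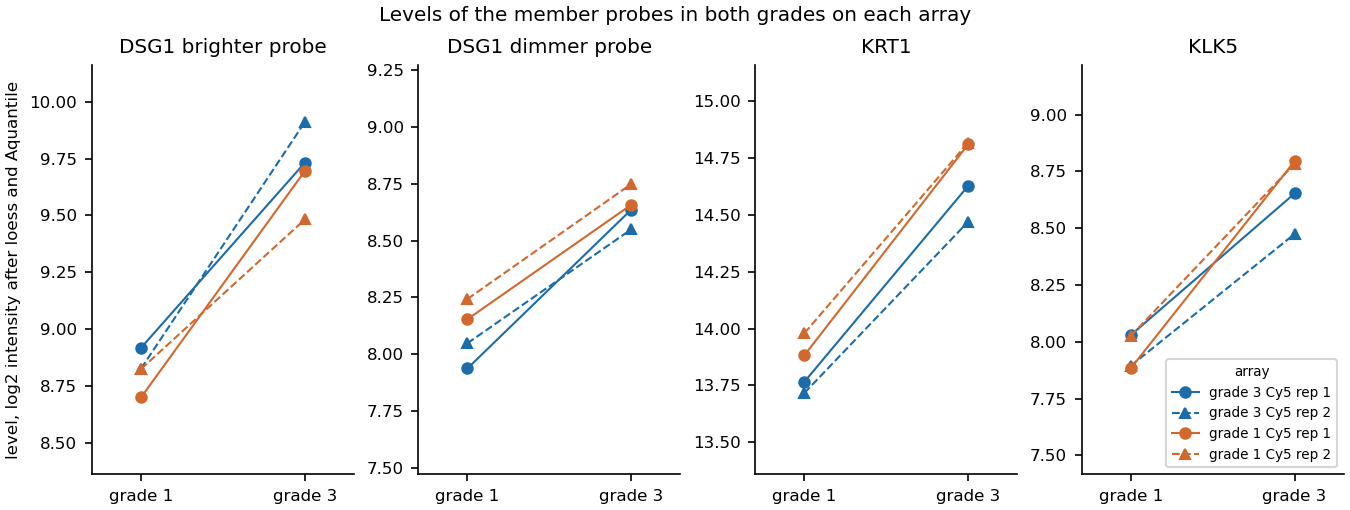
Log2 level of each probe of DSG1, KRT1 and KLK5 in grade 1 and grade 3, one line per array, blue for grade 3 in Cy5 and orange for grade 1 in Cy5, each panel spanning the same number of log2 units. All 4 lines rise in each panel, and the grade 3 and grade 1 points do not overlap for any probe.

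DSG1 was measured by a brighter and a dimmer probe. The brighter one had levels of 9.73, 9.91, 9.70 and 9.48 in grade 3 and of 8.92, 8.83, 8.70 and 8.82 in grade 1, which did not overlap. Its ratios of 0.81, 1.09, 1.00 and 0.66 had the widest spread among the members, and both the highest and the lowest came from a replicate 2. The dimmer probe had levels of 8.64, 8.55, 8.66 and 8.75 in grade 3 against 7.94, 8.05, 8.15 and 8.24 in grade 1, also without overlap. It was 1.47-fold higher (0.55 ± 0.05 SE on the log2 scale, limma adjusted p = 1.03e-05), with ratios of 0.70, 0.50, 0.50 and 0.51. The brighter probe exceeded the dimmer one by a mean of 0.34 ± 0.24 on the log2 scale (SD, n = 4), in the same direction on 4 of 4 arrays. The exact two-sided sign-flip permutation test of that difference gave p = 0.125, the smallest that 4 arrays allow. With the mean of both probes DSG1 had a log2 fold change of 0.72, which is 1.65-fold.

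KLK5, the protease gene, had a dim probe. Its levels were 8.65, 8.47, 8.79 and 8.78 in grade 3 and 8.03, 7.89, 7.88 and 8.03 in grade 1, and these did not overlap. Its ratios were 0.62 and 0.58 with grade 3 in Cy5 and 0.91 and 0.76 with grade 3 in Cy3, so the orientations did not overlap either. The orientation means were 0.60 and 0.83, and the fit includes a dye term for such differences. All 4 spots were well above background in both channels, with a signal of 5.04 to 6.26 times the local background in grade 1 and 8.78 to 20.8 times in grade 3. Among all tested probes, 23% had every grade 3 level above every grade 1 level, and 28.7% had a ratio above 0 on all 4 arrays, as all 4 probes of the members did.

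**Figure D2:**
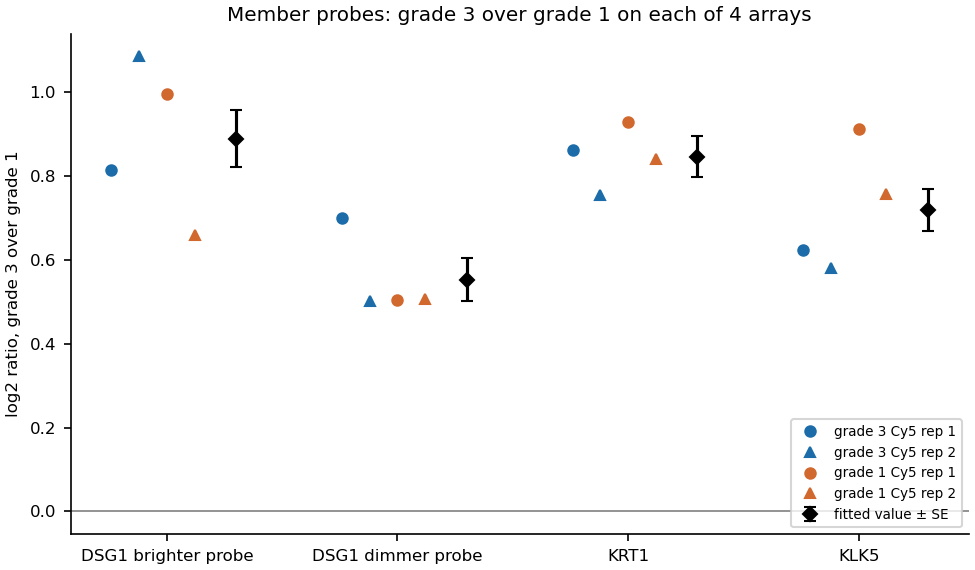
Log2 ratio of grade 3 over grade 1 on each array (coloured points) for the 4 probes, with the fitted value ± SE (black diamonds), on an axis that includes 0. The 16 array ratios lie between 0.50 and 1.09.

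Whether the folds of the 3 genes differ in order could not be decided. With 4 arrays the exact sign-flip test gives no p below 0.125, so no pair could pass 0.05. DSG1 exceeded KRT1 by 0.04 ± 0.22 on the log2 scale (SD, n = 4, exact sign-flip p = 0.75), with 2 arrays on either side of 0. DSG1 exceeded KLK5 by 0.17 ± 0.25 (exact sign-flip p = 0.375), on 3 of 4 arrays. KRT1 exceeded KLK5 by 0.13 ± 0.10 on 4 of 4 arrays (exact sign-flip p = 0.125, adjusted over 9 pairs 0.161). Genes whose 4 array ratios were closest to a member's, by root mean square difference among 924 other named genes, were F3, BCL2 and NEFH for DSG1 (0.09, 0.14 and 0.18). For KRT1 they were ARG2, MT1E and PDGFA (0.04, 0.07 and 0.12) and for KLK5 CYP1B1, GALC and HACD1 (0.05, 0.09 and 0.11). By this measure KRT1 stood at rank 5 from DSG1, and KLK5 at rank 6 from KRT1. KRT1 stood at rank 9 from KLK5, DSG1 at 12 from KRT1, KLK5 at 16 from DSG1 and DSG1 at 42 from KLK5. The likeness rests on 4 ratios and says only that the folds are of like size.

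How local background was corrected decided the KLK5 call. Some local backgrounds carry an outlier mark from Feature Extraction, and in the values above the channel's median on that array took their place. This applied to the grade 3 channel of KLK5 on 1 array and to that of KRT1 on another, but to no spot of DSG1. The replaced backgrounds enter the normexp correction of the whole array and channel, so probes without a mark can move too. With marked backgrounds left as measured, KLK5 was 1.36-fold higher and not called (0.45 ± 0.11 SE on the log2 scale, limma adjusted p = 0.0535), and the dimmer DSG1 probe had 0.36 (adjusted p = 0.0999). The brighter DSG1 probe was 1.47-fold higher and called (adjusted p = 0.0287), and KRT1 kept 1.80-fold (adjusted p = 0.00169). In that setting 6.57% of tested probes were called higher, against 30.9% with the processed signals, 44.1% with median centring, 91.1% with spike-in scaling and 22.5% without a dye term. Across 15 alternatives, the limma adjusted p of KLK5 reached no higher than 0.0535 and that of KRT1 no higher than 0.00169. With the scanner software's own processed signals DSG1 was 2.07-fold, KRT1 1.80-fold and KLK5 1.92-fold higher.

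The mean log2 ratio of the spike-in controls was -0.67, and scaling to it raised the median over the tested probes from 0.0045 to 0.67. It moved DSG1, KRT1 and KLK5 to 1.56, 1.51 and 1.39 on the log2 scale. Changes here are therefore relative to the other probes of the same array. Of all calls 50.5% were higher, 63.9% with median centring in place of loess, 34.5% with marked backgrounds as measured and 97.2% with spike-in scaling.

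**Figure D3:**
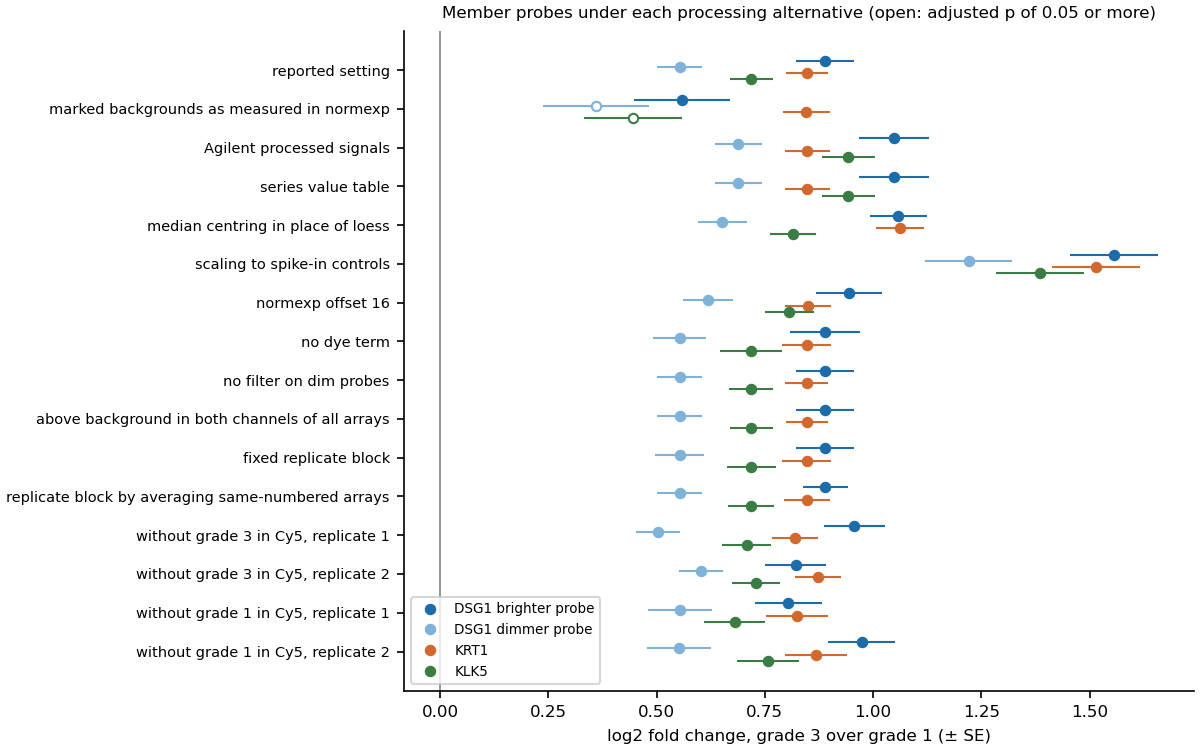
Log2 fold change ± SE of the 4 probes of DSG1, KRT1 and KLK5 (x axis) under the reported setting and each alternative (y axis), open where the adjusted p was 0.05 or more. All values lie above 0, and the only open points are KLK5 and the dimmer DSG1 probe with marked backgrounds as measured.

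Other genes of the keratinocyte programme were read from 7 lists, of which only part could be named on the array. Of 240 listed genes 53 had a named probe and 49 were tested, by their brightest probe; 24 were higher, DEFB1 of these tested only through its level in grade 3, 17 lower and 8 not called. Keratins 5, 10 and 14, involucrin, loricrin, filaggrin and TP63 were not analysed here. The 7 tested genes of a keratinocyte marker list (KRT1, KRT2, DSG1, DSG3, TGM1, KLK5 and SPINK5) were all called higher, and their median was 0.72 on the log2 scale, against 0.0045 over all tested probes. With marked backgrounds as measured 4 of the 7 were called higher, and without a dye term 6. That list holds the 3 members themselves, and its median is the value of KLK5, so it is no separate evidence for them. The genes of the list that are not members, KRT2, TGM1, DSG3 and SPINK5, had 0.21, 0.29, 0.42 and 1.39. Among all 925 named genes tested, 24.1% were called higher and 46.1% lower.

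The other type II keratins and the other desmoglein that could be named were KRT2, KRT71 and DSG3. KRT2, a keratin of the outermost living layers, was 1.15-fold higher (log2 fold change 0.21 ± 0.05), though not called with marked backgrounds as measured (adjusted p = 0.274), and KRT71, a hair follicle keratin, had 0.05 ± 0.06 (adjusted p = 0.503). DSG3, the desmoglein of the basal layers, was 1.34-fold higher. Its ratios were 0.64 and 0.86 with grade 3 in Cy5 but only 0.15 and 0.04 with grade 3 in Cy3. Both DSG1 over DSG3 (mean difference 0.47 ± 0.32) and KRT1 over KRT2 (0.64 ± 0.08) were above 0 on 4 of 4 arrays (SD, n = 4, exact sign-flip p = 0.125 each, adjusted 0.161). DSG1 over DSG3 split by dye, with 0.18 and 0.22 with grade 3 in Cy5 but 0.84 and 0.62 with grade 3 in Cy3.

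Of the 10 tested desmosome and junction genes, DSG1 among them, 7 were called higher and none lower, and the median log2 fold change was 0.31. Of all named genes 24.1% were called higher. With marked backgrounds as measured 4 of the 10 were called higher. The tight junction scaffold gene TJP1 was 1.58-fold higher and the tight junction gene OCLN 1.35-fold. Beta-catenin (CTNNB1), which links cadherins to actin, had 0.19 ± 0.05 and the connexin gene GJA1 0.21 ± 0.07. The calls of OCLN, CTNNB1 and GJA1 were lost with marked backgrounds as measured, and those of CTNNB1 and GJA1 also without a dye term. GJA1 was further not called with the processed signals (adjusted p = 0.0697), without replicate 1 of the arrays with grade 3 in Cy5 (0.0655) or replicate 2 of those with grade 1 in Cy5 (0.281). The 3 not called were CLDN3 (0.11), GJB2 (-0.02) and CLDN2 (-0.10), of which GJB2 and CLDN2 had values above 0 with spike-in scaling. With median centring CLDN3 (0.36) and GJB2 (0.20) were called higher and CLDN2 (-0.19) lower, and CLDN2 was also called lower without replicate 2 of the arrays with grade 1 in Cy5 (adjusted p = 0.047). CLDN3 was called higher without replicate 2 of the arrays with grade 3 in Cy5 (adjusted p = 0.0215).

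Of 38 listed genes of the cornified envelope and barrier lipids only 2 had a named probe. Both were called higher, where 24.1% of all named genes were. KRTDAP, a secreted peptide gene of differentiating keratinocytes, was 1.27-fold higher (log2 fold change 0.34 ± 0.05, limma adjusted p = 0.000166). TGM1, the transglutaminase that cross-links the cornified envelope, was 1.22-fold higher (0.29 ± 0.05), but not called with marked backgrounds as measured (adjusted p = 0.0805) or without a dye term (0.059). The array ratios of TGM1 split by dye, being 0.03 and 0.09 with grade 3 in Cy5 but 0.57 and 0.47 with grade 3 in Cy3.

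**Figure D4:**
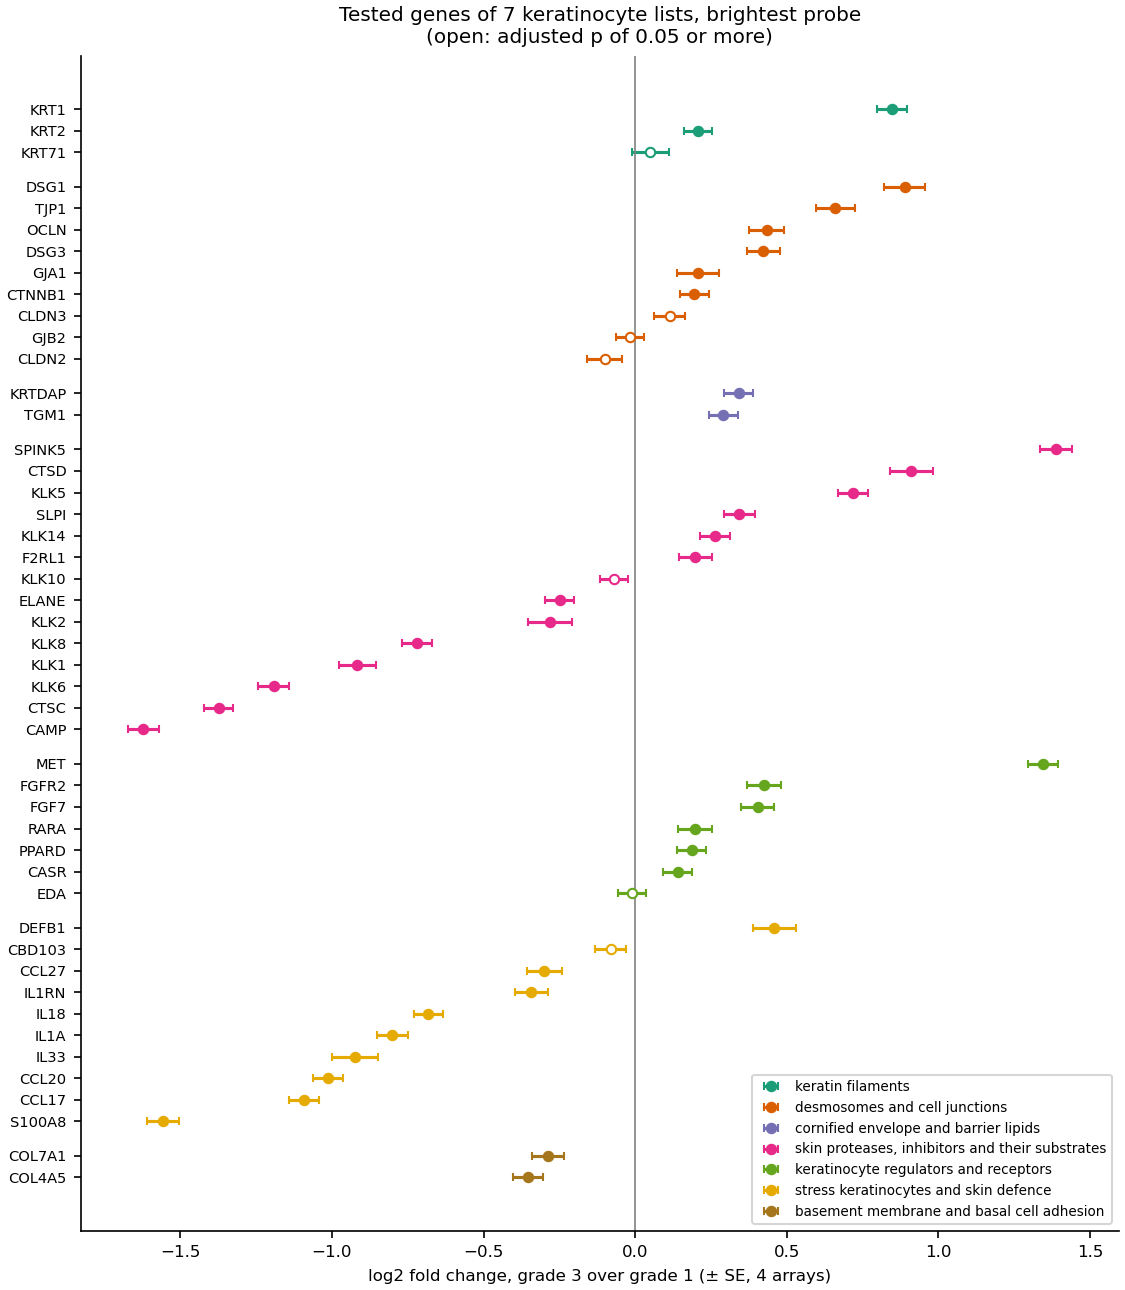
Log2 fold change ± SE over 4 arrays (x axis) of 47 tested genes of the 7 keratinocyte lists, by brightest probe and coloured by list; open points were not called. The protease list runs from CAMP at -1.62 to SPINK5 at 1.39, and the stress and defence list lies mostly below 0.

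The protease genes did not move together. KLK5 and KLK14, another kallikrein of the skin, were higher, while KLK6, KLK8 and KLK1 were lower. KLK14 was 1.20-fold higher (log2 fold change 0.26 ± 0.05), not called with marked backgrounds as measured (adjusted p = 0.172). KLK6 was 2.28-fold lower (-1.19 ± 0.05, limma adjusted p = 5.85e-08), with levels of 9.80 to 10.1 in grade 3 and 11.1 to 11.3 in grade 1. KLK8 was 1.65-fold lower (-0.72 ± 0.05), with a call lost with marked backgrounds as measured (adjusted p = 0.0655) and with spike-in scaling (-0.05). KLK1, a tissue kallikrein, was 1.89-fold lower by its brighter probe and 2.35-fold by its dimmer one. KLK10 had -0.07 ± 0.05 (adjusted p = 0.223), though it was called lower with the processed signals (-0.18, adjusted p = 0.0282) and turned to 0.60 with spike-in scaling, and KLK2 fell by 0.28, turning to 0.39 with spike-in scaling and not called with marked backgrounds as measured (adjusted p = 0.356) or without replicate 1 with grade 1 in Cy5 (0.066). KLK5 exceeded KLK6 by 1.91 ± 0.12 and KLK8 by 1.44 ± 0.08 on the log2 scale (SD, n = 4), on 4 of 4 arrays (exact sign-flip p = 0.125 each, adjusted 0.161), pairs chosen after their values were seen.

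SPINK5, whose product LEKTI blocks KLK5, was higher in grade 3 by all 4 of its probes. Its brightest probe had levels of 12.98, 13.06, 12.92 and 12.85 in grade 3 and of 11.56, 11.45, 11.62 and 11.62 in grade 1. These lie far apart, and SPINK5 was 2.62-fold higher (1.39 ± 0.05 SE on the log2 scale, limma adjusted p = 2.28e-08). Its other 3 probes had 1.28, 1.14 and 1.45, all called. The third brightest differed by dye orientation, with 1.30 and 1.69 against 0.73 and 0.81. SPINK5 exceeded KLK5 by 0.67 ± 0.30 on 4 of 4 arrays (SD, exact sign-flip p = 0.125, adjusted 0.161), a pair likewise chosen after its values were seen. That difference was 0.80 and 1.03 with grade 3 in Cy5 but 0.38 and 0.47 with grade 3 in Cy3. Under the alternatives SPINK5 stayed between 2.43-fold and 4.16-fold and was called in each that had a test; the mean of its 4 probes, 2.49-fold, had none.

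Genes of KLK5 substrates went apart. The protease-activated receptor gene F2RL1 had a log2 fold change of 0.20 ± 0.05, with a call lost with marked backgrounds as measured, with median centring, without a dye term and without replicate 1 with grade 1 in Cy5. CAMP, the cathelicidin gene whose product KLK5 processes in skin, was 3.08-fold lower (-1.62 ± 0.05, limma adjusted p = 7.59e-09). In the whole list of 14 tested proteases, inhibitors and substrates 6 were higher and 7 lower, KLK10 was not called, and the median was -0.16. Among all named genes 24.1% were called higher and 46.1% lower, so the calls as lower set this list little apart. With spike-in scaling 9 of the list were higher and 4 lower, and its median turned to 0.51. The inhibitor gene SLPI was 1.27-fold higher and the lysosomal protease gene CTSD 1.88-fold, while CTSC, encoding the protease that activates neutrophil serine proteases, was 2.59-fold lower and ELANE, neutrophil elastase, fell by 0.25. The ELANE call was lost with marked backgrounds as measured, and with spike-in scaling it turned to 0.42.

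**Figure D5:**
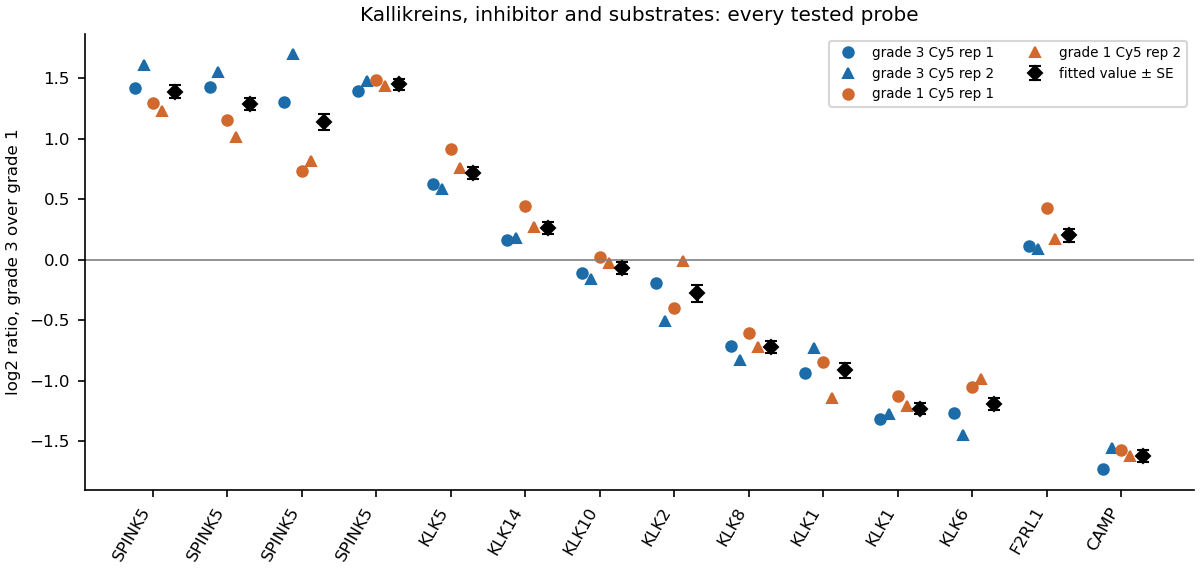
Log2 ratio of grade 3 over grade 1 on each array (coloured points) and fitted value ± SE (black diamonds) for every tested probe of SPINK5, the kallikrein genes, F2RL1 and CAMP. All 4 SPINK5 probes and KLK5 lie above 0 on all arrays, and KLK8, KLK1 and KLK6 lie below 0 on all arrays.

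Of 7 tested regulator and receptor genes, 6 were called higher, none lower and 1, EDA, not called (-0.01), where 24.1% of all named genes were called higher. MET, the hepatocyte growth factor receptor gene, was 2.54-fold higher, with a second probe at 2.36-fold, though with marked backgrounds as measured it had 0.85 on the log2 scale (adjusted p = 0.0561). FGFR2, whose epithelial form binds FGF7, was 1.34-fold higher and FGF7, the keratinocyte growth factor gene, 1.32-fold, the latter not called with marked backgrounds as measured (adjusted p = 0.0818). The nuclear receptor genes RARA and PPARD and the calcium receptor gene CASR had 0.20, 0.19 and 0.14. The calls of these 3 were lost with marked backgrounds as measured, without a dye term and without replicate 2 of the arrays with grade 1 in Cy5. Those of RARA and CASR were also lost without replicate 1 of the arrays with grade 3 in Cy5, and that of CASR without replicate 1 of the other orientation.

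Stress and defence genes of keratinocytes were mostly lower. Of 10 tested, 8 were called lower, where 46.1% of all named genes were. CBD103 was not called, and the median was -0.74 on the log2 scale. S100A8, a calcium-binding protein gene of inflamed epidermis and of neutrophils, was 2.94-fold lower, the alarmin gene IL33 1.90-fold and IL1A 1.74-fold. The array ratios of that IL33 probe ran from -1.33 to -0.37, and a dimmer IL33 probe was 3.05-fold lower. The chemokine genes CCL17 and CCL20 were 2.13-fold and 2.02-fold lower and CCL27, a keratinocyte chemokine gene, 1.23-fold. The beta-defensin gene DEFB1 was well above background on all 4 arrays in grade 3 but on 1 in grade 1, so it was tested only through the grade where it is high and no fold is given. Its call as higher was lost with marked backgrounds as measured (adjusted p = 0.179). With marked backgrounds as measured 5 of the 10 were called lower, IL1A, IL1RN and CCL27 no longer among them, and with spike-in scaling 4 were lower and 4 higher. Leukocytes express several of these genes too. Of the basement membrane genes COL4A5 and COL7A1 fell by 0.35 and 0.29. With spike-in scaling COL4A5 and COL7A1 turned to 0.31 and 0.38, COL4A5 was not called with marked backgrounds as measured (adjusted p = 0.0789), and COL7A1 not with median centring (0.499).

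Markers of other cells moved with grade as well, and their part in the differences of DSG1, KRT1 and KLK5 was not tested. The counts below stand beside 24.1% of all named genes called higher and 46.1% called lower. Melanocyte genes were higher in 1 of 11 and lower in 3, the median being -0.06, and TYR, the tyrosinase gene, was at no array well above background. Luminal genes were higher in 4 of 8, led by CSN2 (7.03-fold) and LALBA (5.66-fold), and lower in 2, PGR (1.49-fold) and TFF1 (1.14-fold), which were named after their values were seen. Skeletal muscle genes were higher in 6 of 7 by brightest probe, and in 4 with marked backgrounds as measured. The remaining muscle gene was called lower (-0.14), but not with marked backgrounds as measured or without a dye term. Probes of a muscle gene did not always go the same way. TCAP, named after its values were seen, had 1.26 by its brightest probe but -0.22, -0.18 and -0.12 by its others. DMD had 0.16 by its brightest probe, while its others ran from -0.81 to 0.32. MYH2 was 23.4-fold higher by its brightest probe, 12.6-fold with marked backgrounds as measured and 1.32-fold to 12.5-fold by its other 4 probes, of which 3 were not above background on every array in grade 1. The mean level of the 7 muscle genes was 10.86 to 10.98 in grade 3 and 8.94 to 9.18 in grade 1. Both myoepithelial genes tested, OXTR and CAV1, were higher (0.29 and 0.25), neither of them called with marked backgrounds as measured. Fibroblast genes were lower in 5 of 6 (COL1A1 2.24-fold), macrophage genes in 4 of 5 (FCGR1A 2.59-fold, CCL2 2.06-fold) and T and NK cell genes in 7 of 7 (KLRD1 2.65-fold), but with spike-in scaling the median turned to 0.21 for fibroblast genes, to 0.60 for melanocyte genes and to 0.25 for T and NK cell genes. With marked backgrounds as measured 0 of the 7 T and NK cell genes were called by limma (KLRD1 adjusted p = 0.0672), while 3 had an unadjusted p under 0.05. TYRP1, the 1 melanocyte gene called higher, and ICOS, a T cell gene called lower, were well above background on all 4 arrays only in the grade where they were high. The remaining macrophage gene was called higher (0.36), but not with marked backgrounds as measured or without a dye term. The mean level of the macrophage genes was 12.2 to 12.5 in grade 3 and 13.0 to 13.2 in grade 1.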

How the data were processed

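The submitters' processing notes name Agilent Feature Extraction 10.7.3.1 as the software that read the spots. The deposited median signals, local backgrounds and processed signals are intensity values, per the file headers, the last already background-subtracted and dye-normalized. The deposited LogRatio is on a log10 scale and sets Cy5 over Cy3, per the file headers, and the deposited value table holds the same log10 ratios turned to grade 3 over grade 1 (largest difference 4.99e-06).

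In R 4.3.3 with limma 3.58.1, median signals were corrected with normexp (offset 50), between 151 and 2352 marked local backgrounds per array and channel having been replaced by the median, and normalized with loess, control spots having weight 0. Spots marked as outliers (11 to 39 per array) were left out, none was saturated, and spots of a probe were averaged. A probe was tested if, for either grade, all 4 of its arrays were well above background, which held for 35412 of 43603. The log2 ratios were fitted with a grade and a dye term (2 residual and 7.50 prior degrees of freedom), moderated with eBayes, two-sided, Benjamini-Hochberg adjusted over all tested probes. The fit was run on simulated data with independent noise on each array, which does not cover arrays that share an extract. Differences between probes had exact sign-flip permutation tests over 4 arrays. These have no dye term, so the SD of such a difference includes any gap between the dye orientations.

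The array's depth is signal over background: median Cy5 signals were 289 to 402 units on backgrounds of 39 to 41, median Cy3 signals 215 to 354.5 on 28 to 32, and 80.6% to 84.5% of probes per channel were well above background. All arrays lay on 1 slide, and their number limits the precision.

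Names came from RefSeq accessions without version in the table of UU_Cfam_GSD_1.0, which matched 1648 probes. The array design names canFam2, so no coordinates and no sequences are given. The brightest tested probe stood for a gene. Named genes were the members, every measured gene of 7 keratinocyte lists (2 of them are counted but not reported here), the 3 nearest patterns per member, and the brightest and smallest-p member of each other-cell list. Members and lists were chosen with earlier results of these data known, as was the background replacement. Same-numbered arrays of opposite dye deviated with a correlation of -0.09, so the numbers were not taken to pair them.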

Additional observations from a re-analysis of the deposited data

Results flagged for a closer look

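The array ratios of 73 results were examined for a single distant array by Dixon's criterion, which chance meets in about 1 of 20 groups, and 2 met it. The dimmer DSG1 probe stood at 0.70 on replicate 1 of the arrays with Cy5 on grade 3, while the remaining arrays read 0.50, 0.50 and 0.51. The gap made up 0.975 of the whole range, and without that array the log2 fold change was 0.50 and still called. CTLA4, an inhibitory receptor gene of T cells from the other-cell lists, stood at -0.57 on replicate 2 of the same orientation, while the remaining arrays read -0.84, -0.84 and -0.82. Here the gap made up 0.907 of the range.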

How the results depend on the processing

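DSG1 and KRT1 kept their direction and their call under every alternative run (16 and 15; the mean of both DSG1 probes, 0.72, had no test), and KLK5 under all but marked backgrounds as measured (0.45, weaker). On leaving out each array DSG1 ranged from 0.80 to 0.97, KRT1 from 0.82 to 0.87 and KLK5 from 0.68 to 0.76. Counts of 11030 higher and 10802 lower probes became 2328 and 4418 with marked backgrounds as measured and 32260 and 917 with spike-in scaling, and stayed within 1.5 times otherwise. With a fixed replicate block they were 10922 and 10640, and the block, or averaging same-numbered arrays, changed no call of a named gene; a random replicate block with a dye term could not be fitted to 4 arrays. Signs turned with spike-in scaling for CLDN2 (0.57), GJB2 (0.65), KLK10 (0.60), KLK2 (0.39), ELANE (0.42), EDA (0.66), CBD103 (0.59), IL1RN (0.32), CCL27 (0.37), COL7A1 (0.38), COL4A5 (0.31), RAB27A (0.26), EDNRB (0.14) and COL1A2 (0.12). They turned with median centring for KRT71 (-0.017), GJB2 (0.20) and CBD103 (0.14), with the processed signals or the value table for GJB2 (0.020), and with the mean of its probes for DMD (-0.082), an alternative added after seeing the data, which also moved MYH2 to 2.58, CYP1B1 to 0.26 and COL7A1 to -0.40. On leaving out each array GJB2 ranged from -0.039 to 0.0051, KRT71 from -0.029 to 0.13 and EDA from -0.019 to 0.00035. Causes were not tested. Dim probes are limited by signal over background.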

Other observations

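The 3 genes each lie in a cluster of related genes, and the RefSeq gene order of UU_Cfam_GSD_1.0 gives their neighbours; this description was added after the data were seen. Among the 5 genes on either side of DSG1, which include other desmoglein and desmocollin genes, DSG3 alone had a named probe (log2 fold change 0.42 ± 0.05). Around KRT1 the named ones were KRT2, its immediate neighbour (0.21 ± 0.05), and KRT71 (0.05 ± 0.06). Around KLK5 they were KLK6, its immediate neighbour (-1.19 ± 0.05), KLK8 (-0.72 ± 0.05), KLK2 (-0.28 ± 0.07) and KLK9 (-0.09 ± 0.05, limma adjusted p = 0.155). KLK5 was thus the one measured kallikrein gene of that stretch with a value above 0 at the scaling used here, while KLK14, outside it, had 0.26. With spike-in scaling KLK2 (0.39) and KLK9 (0.58) also had values above 0.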
